A study of Mus musculus with 4 samples.

Results

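The 34 genes described here encode lysosomal proteins: 8 cathepsins, 11 glycosidases and sulfatases, 7 enzymes and carriers of lipids, the lumenal proteins Grn and Tpp1, 5 membrane proteins and the transcription factor Tfeb. They were chosen by symbol from the 52636 gene IDs of the deposited matrices, and each symbol matched 1 gene ID. Cells came from glomeruli, the filtering tufts of the mouse kidney, which were held on a magnet after perfusion with beads and digested to single cells. There were 2 libraries labelled young and 2 labelled aged, both without treatment. How old the mice were, their sex and strain, and how many contributed to a library are not given in the sources used here. P-values therefore measure the spread between these libraries, which may be partly technical.

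Lysosomes are acidic compartments that break down proteins, glycans and lipids delivered by endocytosis, phagocytosis and autophagy. Their hydrolases are made in the secretory pathway and sorted to the lysosome, where heavily glycosylated membrane proteins line the inner face. Tfeb, a master regulator of lysosome formation, binds short E-box elements in the promoters of many of these genes, and loss of single enzymes causes storage diseases, some of which affect podocytes.

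The matrices held counts of unique molecular identifiers (UMIs), 1 per captured RNA molecule. Totals per library ran from 18457791 to 42046542 UMIs, and 5035, 6976, 9187 and 6802 cells were kept, in the order young replicate 1 and 2, then aged replicate 1 and 2. Young replicate 2 stood apart: 58.1% of its kept cells lay in clusters that carried markers of several classes and were left without a class, against 1.95% to 4.26% in the other libraries. Between 9 and 31 cell barcodes were shared by any pair of libraries. The glomerular classes were podocytes (516 to 1678 cells per library), endothelial cells (1323 to 5993), mesangial cells, the contractile support cells of the tuft (203 to 686), and cluster 17 (30 to 95). Cluster 17 held markers of the parietal epithelium of Bowman's capsule, but tubule markers reached 0.483 of the level of its own markers, so it stays unnamed here. Macrophages were nearly confined to the aged libraries, with 3 and 10 young against 521 and 457 aged cells. UMIs were summed per class and library, and levels are CPM, the UMIs of a gene for every 1000000 of that sum, given with young replicate 1 first. Counting the 3' ends of transcripts does not favour long transcripts, so levels of different genes are set side by side without a length correction.

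Promoter sequences of 30 of the 34 genes were found in RefSeq (GRCm38.p6), each from 250 bases before to 50 bases after a start site. They were searched on both strands for the E-box core CACGTG and for TCACGTG, which contains the core and forms most of the element described for Tfeb. TCACGTG was present in promoters of 9 of the 30 genes (30%), against 4.29% of all 27025 genes with a promoter, and CACGTG in 10 (33.3%) against 8.09%. The windows below show where the letters fall in 2 genes that were higher in aged mesangial cells, Gla (chrX:134601173-134601253, minus strand) and Lamp1 (chr8:13159079-13159171, plus strand), and in 2 that did not pass the test there, Glb1 (chr9:114401009-114401055, plus strand) and Mcoln1 (chr8:3500427-3500500, plus strand). Capitals mark TCACGTG read on either strand, and a palindromic TCACGTGA counts once from each strand.
Gla: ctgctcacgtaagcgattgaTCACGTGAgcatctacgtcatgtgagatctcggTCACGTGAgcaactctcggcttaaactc
Lamp1: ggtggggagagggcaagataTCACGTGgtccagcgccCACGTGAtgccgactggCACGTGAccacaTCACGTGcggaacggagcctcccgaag
Glb1: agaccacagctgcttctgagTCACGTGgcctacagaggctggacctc
Mcoln1: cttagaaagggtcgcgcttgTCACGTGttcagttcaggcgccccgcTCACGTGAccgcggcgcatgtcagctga
By this count the Gla and Lamp1 windows each held 4 matches, Mcoln1 held 3 and Glb1 held 1. Of the genes called in mesangial cells that had a promoter, 2 of 12 carried TCACGTG, and of those tested there and not called, 7 of 16 did. A match is a description of letters in this window and not of binding.

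The cell classes differed in which of these genes led. Over all the classes, macrophages had the highest mean level of 20 of the 34 genes, led by Ctsb, a cysteine protease, at 3570.5 and 5049.6 CPM in the aged libraries. Psap, the precursor of the saposins that help hydrolases to degrade sphingolipids, followed at 2930.5 and 3068, and Ctss, the cathepsin of antigen-presenting cells, at 2836 and 2048. Mesangial cells had the highest mean of Neu1, a sialidase, with 164 and 164 CPM in young and 193 and 157 in aged cells. All were above the highest macrophage value of 109.5, but they overlapped the range of neutrophils (184 and 59.9). Cd63, a tetraspanin of late endosomes and lysosomes, was also highest in mesangial cells by its mean. That range, from 700.4 CPM, overlapped those of macrophages, neutrophils and cluster 17, which reached 1086. Neutrophils, summed in the aged libraries alone from 62 and 23 cells, had the highest mean of Gla, Npc1, Lamp2 and Tfeb, each on few molecules. Gla measured 184 and 319 CPM there from 17 and 16 UMIs, above every library of the other classes, and Tfeb 54.1 and 59.9 from 5 and 3 UMIs, likewise above them, while Npc1 and Lamp2 overlapped with other classes. Podocytes and cluster 17 were dominated by Ctsl, a cysteine endopeptidase, which made up 43.0% and 50.7% of their UMIs of the 34 genes. In podocytes Ctsl measured 2017 and 2021 against 2811 and 2859 CPM (young against aged) and in cluster 17 3312 and 2780.4 against 4413 and 3854, with overlapping ranges. Ctsh, an aminopeptidase of the cathepsin family, reached 271 and 247 against 381 and 349.6 in podocytes and at most 24.0 in mesangial and 17.8 in endothelial cells. Endothelial cells had the highest Arsa, the sulfatase that degrades sulfatides, with all 4 libraries above those of every other class.

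**Figure D1:**
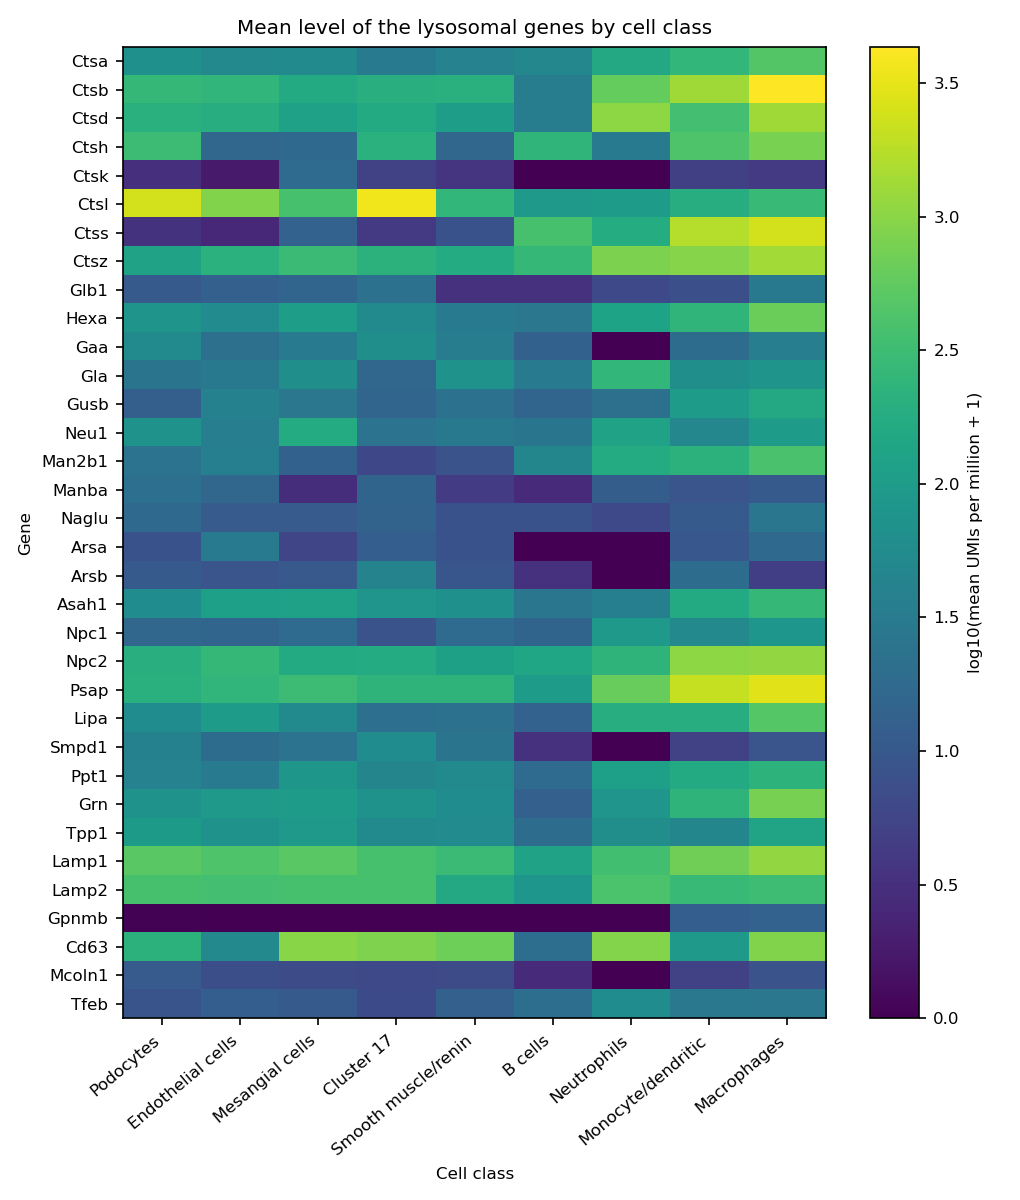
Heat map of the mean level of the 34 genes (rows, by role) in each cell class (columns), as log10 of the mean CPM plus 1 over the libraries with at least 20 cells of the class. Macrophages hold the highest mean for 20 genes, Ctsl stands out in podocytes and cluster 17, and Gpnmb is at or near 0 outside macrophages and monocyte or dendritic cells.

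Tests between the glomerular classes, in edgeR's quasi-likelihood fit with the library as a block, included 33 of the 34 genes. In podocytes 16 were higher and 8 lower than the mean of the other classes, where 35.9% of all genes were called higher, 32.0% lower and 67.9% in either direction. In endothelial cells 11 were higher and 10 lower (33.9%, 27.2% and 61.1% of all genes). In mesangial cells 15 were higher and 8 lower (29.5%, 23.9% and 53.4%). In cluster 17, 6 were higher and 16 lower (16.2%, 14.2% and 30.4%). Ctsh in podocytes (log2 3.15), Arsa in endothelial cells (2.12), Ctsk in mesangial cells (3.31) and Ctsh in cluster 17 (1.94) had the largest positive difference of each class.

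Summed over the 34 genes, the share of all UMIs was 0.387% and 0.345% in young and 0.515% and 0.484% in aged mesangial cells, given as values with no test. In podocytes it was 0.507% and 0.495% (young) against 0.628% and 0.616% (aged). In endothelial cells it was 0.357% and 0.346% against 0.397% and 0.365%, and in cluster 17 0.664% and 0.622% against 0.796% and 0.728%. In each of these 4 classes the aged libraries were both higher, by the least in endothelial cells. A sum is weighted to its most abundant gene, and Ctsl alone made up 43.0% of it in podocytes and 50.7% in cluster 17. In cluster 17 the median log2 fold change of the 18 genes tested was -0.06. There 4 genes were higher and 7 lower in both aged libraries, so the sum does not describe most genes. B cells (0.158% to 0.212%) and smooth muscle or renin cells (0.247% to 0.326%) had the lowest shares, and aged neutrophils had 0.568% and 0.784%. In aged macrophages the 34 genes made up 2.00% and 2.18% of UMIs.

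**Figure D2:**
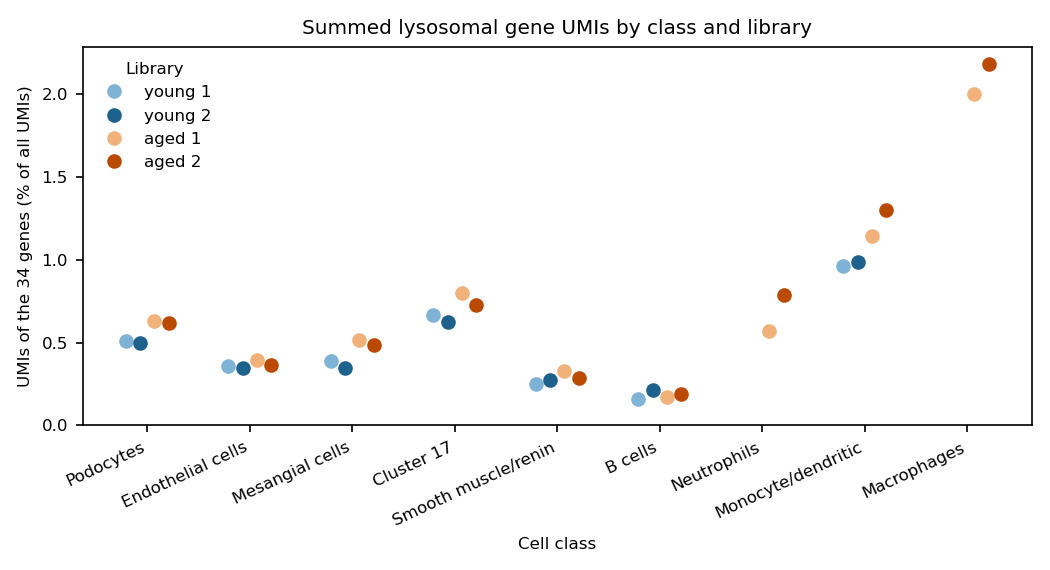
UMIs of the 34 genes as a percent of all UMIs (y axis, from 0) in each cell class (x axis), with 1 point per library. Aged points lie above young ones in the 4 glomerular classes, between 0.484% and 0.515% against 0.345% and 0.387% in mesangial cells, and macrophages lie near 2%.

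Mesangial cells held most of the calls. Of the 34 genes, 32 passed the filter on low counts, 13 were higher in aged cells and none was lower by edgeR's quasi-likelihood test with Benjamini-Hochberg adjustment over all genes. Across the 10867 genes tested edgeR called 4.4% higher, 2.53% lower and 6.93% in either direction. DESeq2 called 6 higher and 0 lower, against 3.86% of all genes in either direction. At an unadjusted p under 0.05 in edgeR the counts were 19 and 0. The share of all genes at an unadjusted p was not computed, here or for the counts further on. The aged libraries were both higher than the young for 24 of the 32 and both lower for 0 (19.1% and 35.7% of all genes), and the median log2 fold change was 0.58 against -0.01 over all genes. Gpnmb, a glycoprotein of the lysosomal membrane in phagocytes, and Manba, beta-mannosidase, were not tested. The calls depended on both young libraries: 0 of the 13 were called without young replicate 2 and 1 (Ctss) without young replicate 1, where 42 and 44 genes were called in all. At an unadjusted p under 0.05, edgeR still gave 13 higher and 1 lower without the former and 19 and 0 without the latter. The calls also set largely different clusters against each other. Cluster 14, whose leading genes include Sfrp2 and Pdgfrb, held 92.2% and 92.1% of young mesangial cells. Cluster 9, whose leading genes include the chemokine genes Cxcl13 and Ccl2 beside Serpine2 and Gpc3, held 96.1% and 96.5% of aged ones. Itga8, a mesangial marker, was among the leading genes of both clusters.

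Among the cathepsins, 4 of 8 rose in aged mesangial cells and all 8 had positive estimates. Ctsk (ENSMUSG00000028111), a collagen-degrading protease best known from osteoclasts, lies on chromosome 3 of GRCm38 (95499256 to 95509362), next to Ctss (95526786 to 95556403). It measured 7.49 and 9.84 CPM in young and 27.7 and 26.4 in aged cells. The groups did not overlap, and the log2 fold change was 1.78 ± 0.28 (SE), adjusted p 0.00246. Ctsl measured 313 and 267 CPM in young and 438 and 473 in aged cells, a change of 0.76 ± 0.15 (SE), adjusted p 0.00994. The Ctsl, Ctss and Manba loci each overlap a processed pseudogene on the same strand. The Ctsd and Glb1 loci each overlap a protein-coding gene on the same strand, so reads could be split at all of these. Ctsh measured 11.8 and 8.05 CPM in young and 24.0 and 21.3 in aged cells, with the aged libraries about alike and both above the young ones. Its log2 fold change was 1.25 ± 0.29 (SE), adjusted p 0.0209. Ctss had 15 and 0 UMIs in young and 88 and 146 in aged cells, or 8.03 and 0 against 17.8 and 25.9 CPM, with a fitted change of 2.26 ± 0.53 (SE), adjusted p 0.0209. As a young library was at 0, the fitted size of the Ctss change depends on the prior count. Ctsb, Ctsd and Ctsa did not pass the test, although the aged libraries were both higher for each. Ctsd, the main aspartic protease of lysosomes, measured 102 and 97.5 against 124 and 146 (0.54 ± 0.16 (SE), adjusted p 0.0533). Ctsz, a carboxypeptidase, overlapped between the ages at 309 and 265 against 282 and 338.

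Of the glycosidases and sulfatases, 2 of 10 tested rose. Gla (ENSMUSG00000031266; chromosome X, 134588149 to 134601125), the alpha-galactosidase that is deficient in Fabry disease, measured 36.4 and 53.7 CPM in young and 73.1 and 88.7 in aged cells. Its groups did not overlap, and the log2 fold change was 0.99 ± 0.20 (SE), adjusted p 0.0106. Hexa, a subunit of beta-hexosaminidase, measured 92.0 and 80.5 CPM in young and 119 and 126 in aged cells, a change of 0.60 ± 0.16 (SE), adjusted p 0.0359. Glb1, the acid beta-galactosidase whose activity is stained as a marker of senescent cells, did not pass the test. Its levels were 12.8 and 12.5 CPM in young and 18.2 and 13.3 in aged cells, with aged replicate 2 just above the young libraries (0.41 ± 0.31 (SE), adjusted p 0.482). The other genes of the group that were tested had estimates between 0.20 and 0.84, none called, and Gusb, Neu1, Man2b1 and Naglu overlapped between the ages. Neu1, the gene with the highest level in the group, stayed between 157 and 193.

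Among the lipid genes 3 of 7 rose: Npc2, Psap and Ppt1. Npc2, the lumenal carrier that hands cholesterol to Npc1, measured 147 and 119 CPM in young and 191 and 207 in aged cells (0.68 ± 0.16 (SE), adjusted p 0.0209). Psap measured 268 and 235 CPM in young and 370.5 and 369.7 in aged cells (0.66 ± 0.15 (SE), adjusted p 0.0181), with the aged libraries almost equal. Ppt1, which removes palmitate from proteins, measured 73.9 and 59.9 CPM in young and 96.1 and 96.7 in aged cells (0.62 ± 0.17 (SE), adjusted p 0.0426). Within cluster 14 alone, which is described further on, the Ppt1 estimate turned to -0.06. Npc1, the membrane exporter of cholesterol, did not pass the test at 17.1 and 16.1 against 18.2 and 18.1, nor did Asah1, acid ceramidase, at 119 and 97.5 against 134 and 128. Lipa, the acid lipase, overlapped between the ages at 55.7 and 53.7 against 54.1 and 52.0. Smpd1, acid sphingomyelinase, had a negative estimate of -0.41 (adjusted p 0.385) that rested on young replicate 1, at 33.7 and 19.7 against 18.4 and 20.2.

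Both other lumenal genes rose. Grn, the progranulin precursor, measured 84.0 and 85.0 CPM in young and 118 and 118 in aged cells (0.59 ± 0.15 (SE), adjusted p 0.0363), and Tpp1, a tripeptidyl peptidase, 76.5 and 75.1 against 99.5 and 115 (0.60 ± 0.16 (SE), adjusted p 0.0369). For both genes the ages did not overlap.

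Of the 4 membrane proteins tested, Lamp1 and Cd63 rose. Lamp1, an abundant glycoprotein of the lysosomal membrane, measured 444 and 418 CPM in young and 611 and 558 in aged cells (0.55 ± 0.15 (SE), adjusted p 0.0475). Cd63 measured 852 and 700.4 CPM in young and 1296 and 991 in aged cells (0.67 ± 0.18 (SE), adjusted p 0.0462), with the aged libraries differing more from each other than the young ones. Lamp2, needed for the fusion of autophagosomes with lysosomes, was above the young libraries in both aged ones but did not pass the test, at 346 and 343 against 421 and 399.7 (0.36 ± 0.15 (SE), adjusted p 0.168). Mcoln1, a calcium channel of the lysosomal membrane, rested on 6, 12, 22 and 29 UMIs and overlapped between the ages. Tfeb rested on 19, 5, 59 and 66 UMIs and measured 10.2 and 4.47 CPM in young and 11.9 and 11.7 in aged cells (0.69 ± 0.37 (SE), adjusted p 0.306). Young replicate 2 was lowest, and no difference was detectable at this depth.

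**Figure D3:**
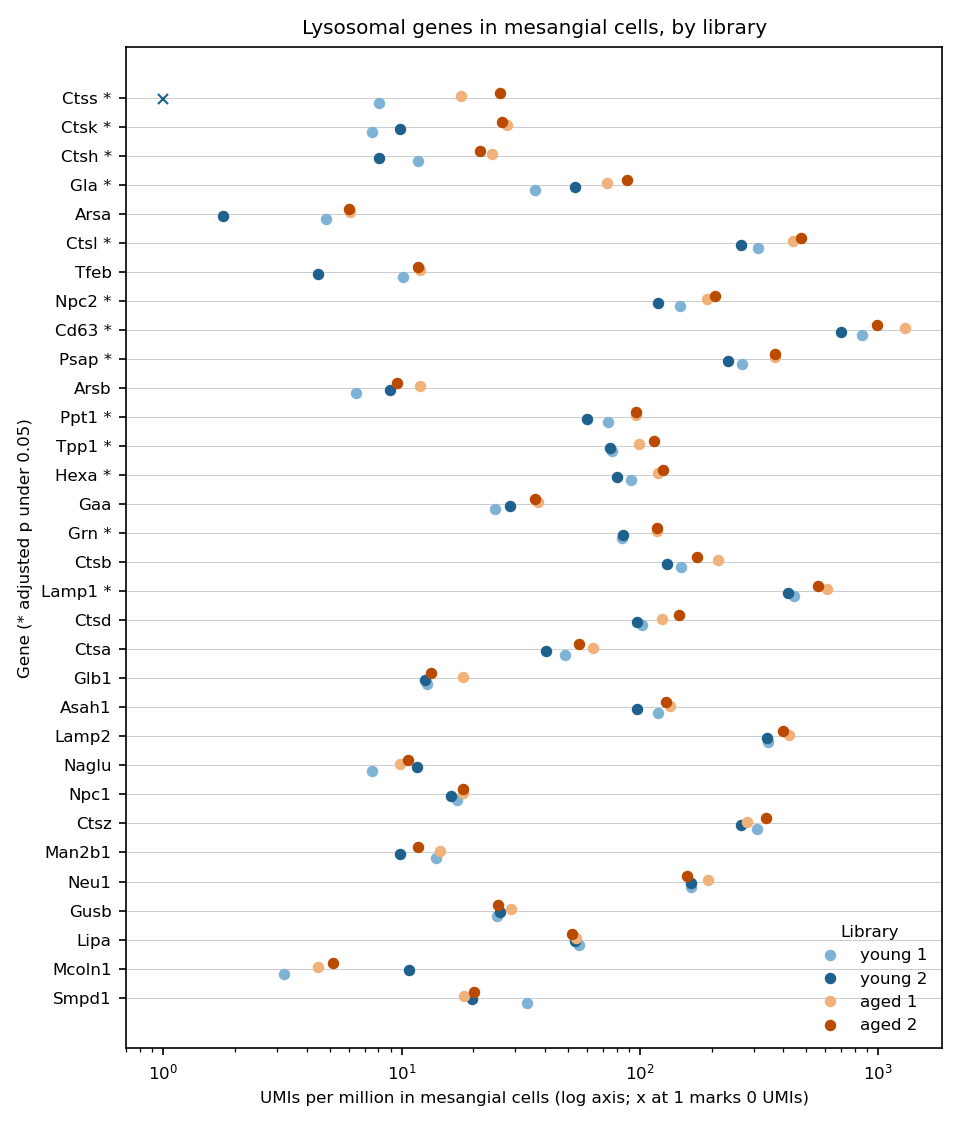
Level of each tested gene in mesangial cells (x axis, CPM, log scale) with 1 point per library, ordered by log2 fold change; an asterisk marks an adjusted p under 0.05 and a cross a library at 0 UMIs. The 13 marked genes have both aged points to the right of both young points, with Ctss, which has a young library at 0, at the top and Ctsk, at 7.49 and 9.84 against 27.7 and 26.4, next to it.

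Within each of the mesangial clusters the summed share of the 34 genes was also higher in the aged libraries, with no gene called. In cluster 14 it was 0.386% and 0.343% in 272 and 187 young cells and 0.462% and 0.435% in 27 and 18 aged cells. In cluster 9 it was 0.395% and 0.414% in 23 and 16 young cells and 0.516% and 0.484% in 659 and 501 aged cells. The 95% Wilson intervals cover counting error only. For aged cells of cluster 14 they ran from 0.425% to 0.502% and 0.391% to 0.484%. Those of the young ran from 0.377% to 0.396% and 0.332% to 0.354%, so aged replicate 2 overlapped young replicate 1. In cluster 9 the young intervals reached 0.443% and 0.482% against aged lower bounds of 0.510% and 0.479%, so aged replicate 2 overlapped young replicate 2. Tests within 1 cluster, for which no minimum of cells was set, called 0 of 21 genes in cluster 14 and 0 of 32 in cluster 9. Of all genes tested there 65 of 6751 (0.963%) and 14 of 9791 (0.143%) were called. At such shares a count of 0 says little about these genes. At an unadjusted p under 0.05 edgeR gave 4 higher and 0 lower in cluster 14 and 7 and 1 in cluster 9, and the medians were 0.24 and 0.55 against -0.03 and 0.31 over all genes. Aged mesangial cells also differed in depth, with 7220 and 10857 UMIs per cell against 6334 and 5507, and in genes induced by tissue dissociation, of which Egr1, Jun and Atf3 fell. The part of depth and of dissociation in the result was not tested.

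In podocytes 33 genes were tested, 2 were higher in aged cells and none was lower, where 4.1% of the 10871 genes were called higher, 2.12% lower and 6.23% in either direction. At an unadjusted p under 0.05 edgeR gave 7 higher and 0 lower. DESeq2 called 2 and 0, against 2.38% of all genes in either direction. The 2 genes called are both cathepsins. Ctsh measured 271 and 247 CPM in young and 381 and 349.6 in aged cells (0.55 ± 0.14 (SE), adjusted p 0.00675) and Ctsl 2017 and 2021 against 2811 and 2859 (0.54 ± 0.15 (SE), adjusted p 0.0196), so the most abundant of these transcripts in podocytes was about 1.46-fold higher. Neither was called without aged replicate 1 or without aged replicate 2, and 4 genes (the same 2 with Cd63 and Npc2) were called without young replicate 1. The aged libraries were both higher than the young for 18 of the 33 and both lower for 2 (18.2% and 27.4% of all genes), and the median log2 fold change was 0.20 against 0.00 over all genes. Cd63 measured 204 and 169 against 261 and 227 (0.43 ± 0.14 (SE), adjusted p 0.0527). Of 10 dissociation-induced genes Atf3, Hspa1a and Hspa1b were higher in aged podocytes and Dusp1 was lower, and their part in the result was not tested.

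The genes that rose in mesangial cells were otherwise not called in podocytes. Gla, whose loss in Fabry disease leads to storage in podocytes, measured 26.7 and 25.7 CPM in young and 21.5 and 22.6 in aged cells (-0.21 ± 0.18 (SE), adjusted p 0.650), with both aged libraries just below the young ones. Tpp1 measured 96.5 and 104 against 89.1 and 92.8, Hexa 72.1 and 63.0 against 85.2 and 79.1, Grn 66.9 and 64.6 against 81.0 and 72.0, Psap 191 and 204 against 205 and 212, Ppt1 37.7 and 41.3 against 40.4 and 41.3 and Npc2 185 and 160.3 against 221 and 201, with log2 estimates of -0.08, 0.32, 0.26, 0.14, 0.11 and 0.33. Lamp1 (492 and 478 against 557 and 515, 0.20 ± 0.14 (SE), adjusted p 0.529) and Lamp2 (343 and 366 against 423 and 382, 0.24 ± 0.13 (SE), adjusted p 0.383) did not pass the test. Ctsd was level at 212 and 195 against 189 and 201 (-0.01 ± 0.13 (SE), adjusted p 0.984). Glb1 measured 8.30 and 8.0 CPM in young and 10.6 and 11.4 in aged cells (0.46 ± 0.25 (SE), adjusted p 0.354) and Tfeb 6.53 and 7.33 against 7.78 and 9.55 (0.39 ± 0.28 (SE), adjusted p 0.549), neither called. Ctsk and Ctss were near the limit of counting in podocytes, with 8 to 13 and 4 to 16 UMIs per library. The Ctsk estimate was -0.18 ± 0.51 (SE), adjusted p 0.919, and that of Ctss 0.10 ± 0.62 (SE), adjusted p 0.969.

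In endothelial cells 33 genes were tested, 2 were higher in aged cells and none was lower, where 4.01% of the 13044 genes were called higher, 1.96% lower and 5.97% in either direction. At an unadjusted p under 0.05 edgeR gave 6 higher and 0 lower. DESeq2 called 2 and 0, against 3.94% of all genes in either direction. Cd63 (ENSMUSG00000025351; chromosome 10, 128900989 to 128912822) measured 36.2 and 26.3 CPM in young and 81.0 and 58.3 in aged cells. Its groups did not overlap and its log2 fold change was 1.25 ± 0.19 (SE), adjusted p 0.000449, or 2.38-fold, and the call stood without each library in turn. Its highest endothelial level, 81.0, was under its lowest mesangial one, 700.4. The aged libraries were both higher than the young for 10 of the 33 and both lower for 5 (15.6% and 37.1% of all genes), and the median log2 fold change was 0.19 against -0.01 over all genes. Of the dissociation-induced genes Dusp1 was higher in aged endothelial cells, and its part was not tested.

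The other endothelial call, Ctss, rested on few molecules: 2 and 2 UMIs in young and 48 and 40 in aged cells, or 0.317 and 0.515 against 3.0 and 2.50 CPM. The ratio of the pooled counts, 4 of 10183556 against 88 of 32034338 UMIs, was 6.99 (exact 95% interval 2.64 to 26.2, counting error only), and the fitted log2 fold change was 2.88 ± 0.55 (SE), adjusted p 0.00340. The call was lost without young replicate 1. Values for RNA carried over from macrophages are given with those of the other classes further on.

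The remaining genes called in mesangial or podocyte cells did not pass the test in endothelial cells. Ctsl measured 819 and 731 CPM in young and 1010.0 and 931 in aged cells (0.44 ± 0.17 (SE), adjusted p 0.141), with the aged libraries above the young ones. Grn lay lower in both aged libraries at 94.2 and 101 against 79.0 and 77.2 (-0.20 ± 0.13 (SE), adjusted p 0.467). Lamp1 (442 and 437 against 441 and 404, 0.07 ± 0.15 (SE), adjusted p 0.879), Lamp2 (351 and 361 against 354 and 335, 0.07 ± 0.15 (SE), adjusted p 0.851) and Ctsd (185 and 180.2 against 186 and 181, 0.13 ± 0.14 (SE), adjusted p 0.7) overlapped between the ages. Their range across the 4 libraries was narrow, and the Lamp1 and Lamp2 estimates turned negative, -0.06 and -0.05, when library totals alone were used for scaling. Glb1 measured 13.0 and 13.1 CPM in young and 11.6 and 10.2 in aged cells (-0.14 ± 0.20 (SE), adjusted p 0.773), with the aged libraries just below the young ones. Tfeb overlapped between the ages at 10.6 and 13.1 against 9.56 and 11.3 (-0.05 ± 0.21 (SE), adjusted p 0.942). The log2 estimates of Gla, Hexa, Ctsh, Ctsk, Npc2, Psap, Ppt1 and Tpp1 were 0.30, 0.28, 0.00, 0.49, 0.27, 0.19, 0.23 and 0.11, none of them called.

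In cluster 17 only 18 genes passed the count filter and none was called in either direction, where 0.832% of the 4565 genes were called higher, 0.482% lower and 1.31% in either direction. edgeR gave 3 of the 18 an unadjusted p under 0.05, and DESeq2 called 0, against 0.986% of all genes. Ctsl, at 3312 and 2780.4 CPM in young and 4413 and 3854 in aged cells (0.45 ± 0.15 (SE), adjusted p 0.193), and Cd63, at 678 and 675 against 1086 and 961 (0.61 ± 0.16 (SE), adjusted p 0.110), were higher in both aged libraries without passing the test, and Ctsl was called without aged replicate 2. Ctsh measured 207 and 190.1 against 207 and 224, Ctsd 143 and 147 against 177 and 186, Lamp1 364 and 409 against 374 and 356 and Lamp2 371 and 423 against 334 and 368, with log2 estimates of 0.14, 0.34, -0.08 and -0.17. Estimates for Hexa, Npc2, Psap, Ppt1, Grn and Tpp1 were 0.08, -0.22, -0.05, 0.02, 0.15 and -0.33. The aged libraries were both higher than the young for 4 of the 18 and both lower for 7 (23.2% and 23.9% of all genes), and the median log2 fold change was -0.06 against 0.00 over all genes. In this cluster 6 of 10 dissociation-induced genes fell with age, among them Jun, Egr1 and Fos, and the part of dissociation was not tested. On simulated counts with the depth of this cluster 29% of genes changed 2-fold were called, against 59% in mesangial cells, 69% in endothelial cells and 73% in podocytes.

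**Figure D4:**
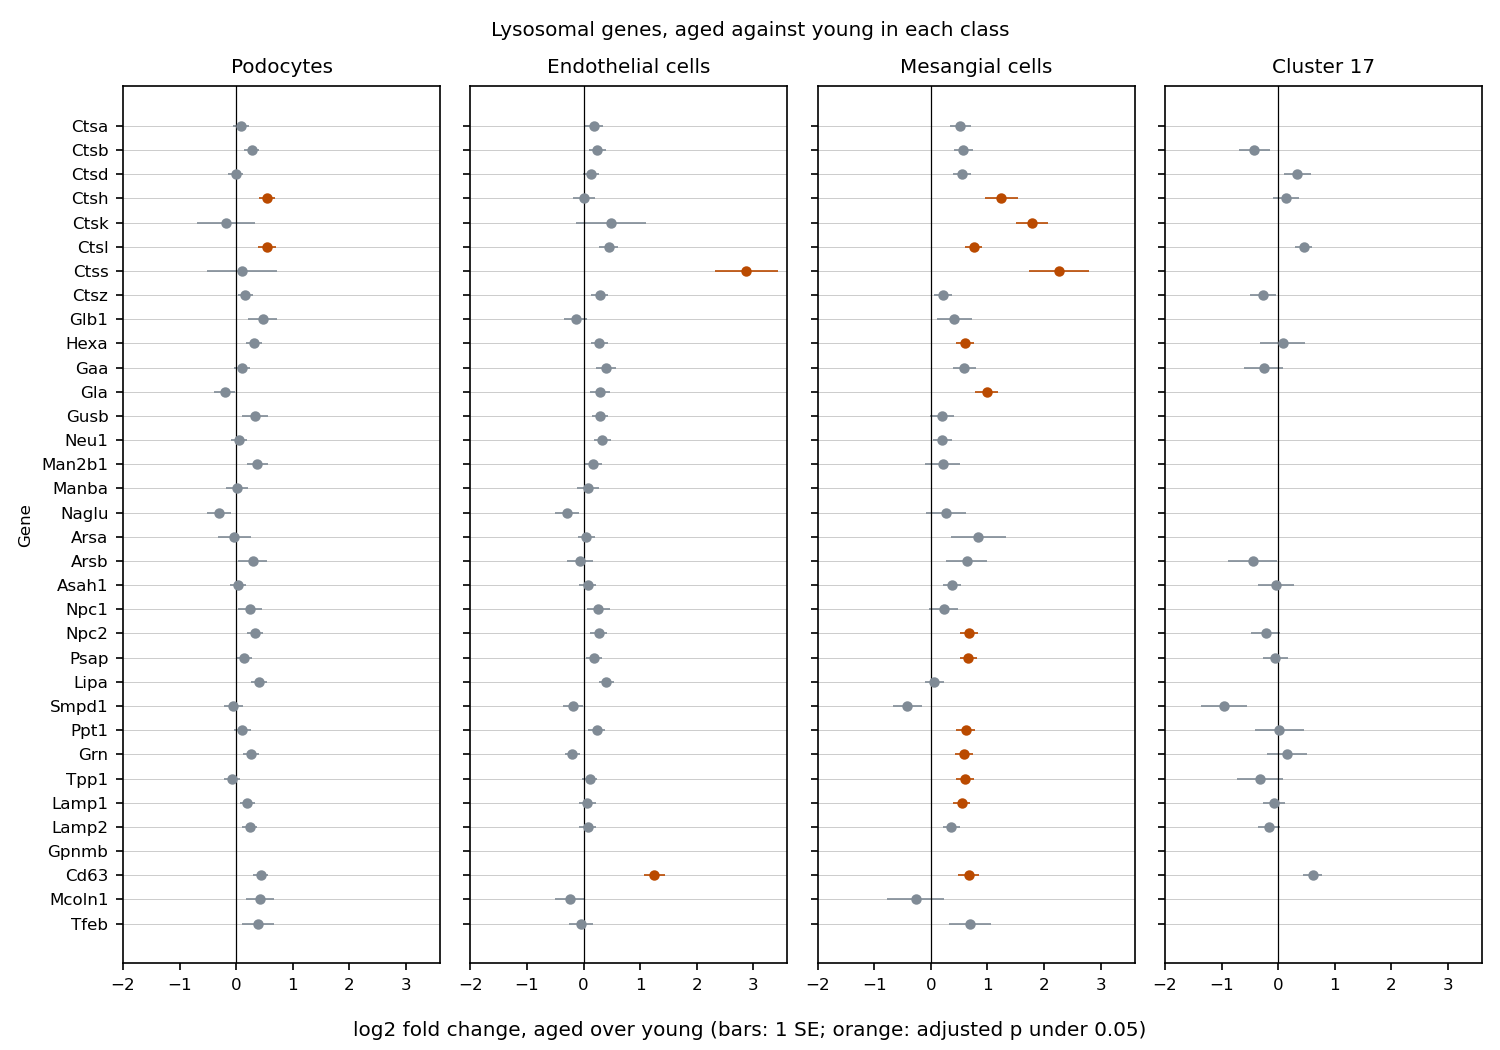
Log2 fold change of aged over young (x axis) for each gene (y axis, by role) in 4 glomerular classes, as the edgeR estimate with bars of 1 SE; orange marks an adjusted p under 0.05 and genes under the count filter are left blank. The 13 orange points in mesangial cells lie between 0.55 (Lamp1) and 2.26 (Ctss), against 2 each in podocytes and endothelial cells and none in cluster 17.

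Whether age effects differed between classes was tested with an interaction term. The age effect on Gla was larger in mesangial cells than in podocytes (log2 difference 1.21 ± 0.24 (SE), adjusted p 0.00389) and than in endothelial cells (0.76 ± 0.21, adjusted p 0.0413). Grn differed between mesangial and endothelial cells (0.84 ± 0.17, adjusted p 0.00321) and Ctsh did likewise (1.28 ± 0.33, adjusted p 0.0263). Ctsh was far higher in podocytes, whose summed markers reached 874, 1254, 774 and 742 CPM in the endothelial sums. In the mesangial sums they reached 355, 449, 279 and 227, against 19082 to 21482 in podocytes. The part of podocyte RNA in the low Ctsh levels of both classes was not tested. Against podocytes, the mesangial effect was also larger for Ctsk (2.00 ± 0.55, adjusted p 0.0451) and Tpp1 (0.68 ± 0.18, adjusted p 0.0330). The endothelial effect was larger than that of podocytes for Cd63 (0.84 ± 0.14, adjusted p 0.000737) and smaller for Grn (-0.43 ± 0.13, adjusted p 0.0475). These were 2 of 33 genes between endothelial cells and podocytes, 3 of 33 between mesangial cells and podocytes and 3 of 33 between mesangial and endothelial cells, where 6.14%, 3.55% and 2.87% of all genes were called. For the other genes called in mesangial cells no such difference passed the test, and none did between cluster 17 and any class (1.77% of all genes were called against podocytes, 1.2% against endothelial and 0.605% against mesangial cells). Without young replicate 1 the mesangial counts were 1 against podocytes and 0 against endothelial cells, and they were the same without young replicate 2, where the count between endothelial cells and podocytes was 1. Without aged replicate 2 the count of mesangial cells against podocytes was 7.

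Because macrophages were nearly absent from the young libraries and express most of these genes at high levels, RNA carried over from them was estimated from 8 macrophage markers. In mesangial cells the markers stood at 0.00304% and 0.0254% of their macrophage level in young against 0.0481% and 0.118% in aged cells, summed 0.535 to 4.47 against 8.48 to 20.8 CPM. They numbered 1 and 5 UMIs in young against 42 and 117 in aged sums, with 7 and 5 of the 8 markers at 0 in the former and 2 and 1 in the latter. In endothelial cells the markers stood at 0.0009% and 0.0176% against 0.0805% and 0.0963%, and in podocytes at 0.0162% and 0.0378% against 0.0578% and 0.0754%. C1qa, a defining macrophage gene, had 0 and 0 UMIs in young and 8 and 33 in aged mesangial sums. In cluster 17 the markers lay at 0.314% to 0.417% in every library, with C1qa at 0 in all 4. These values rested on few markers, since 7, 7, 7 and 5 of the 8 were at 0 there.

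Applied to each gene, these levels gave the part of the aged minus young difference that carried-over macrophage RNA could hold. For Ctss in endothelial cells that was 80.7%, a carried level of 1.91 and 2.29 CPM in the aged libraries of the 3.0 and 2.50 measured, and Ctss was no longer among the genes tested after the expected counts were subtracted. Without every cell that held a macrophage marker UMI, Ctss in endothelial cells was still called (2.72 ± 0.59 (SE), adjusted p 0.00277). In mesangial cells it was 9.16% for Ctss and 4.28% for Ctsh, and at most 1.74% for the other 11 genes called. It was 1.77% for Cd63 in endothelial cells and 0.295% and 0.0139% for Ctsh and Ctsl in podocytes. After subtraction all 13 mesangial calls, both podocyte calls and the endothelial call of Cd63 remained. Without every cell that held a macrophage marker UMI the mesangial count was 14, the 13 among them (7.6% of all genes). RNA from other cells was not part of the estimate, also not from monocyte or dendritic cells, where Ctss was high too. Their summed markers stood at 10.2 and 7.16 CPM in young and 8.48 and 5.86 in aged mesangial sums. In the class itself they stood at 3594 and 3487 against 2010.5 and 1456, and their part in Ctss was not tested.

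**Figure D5:**
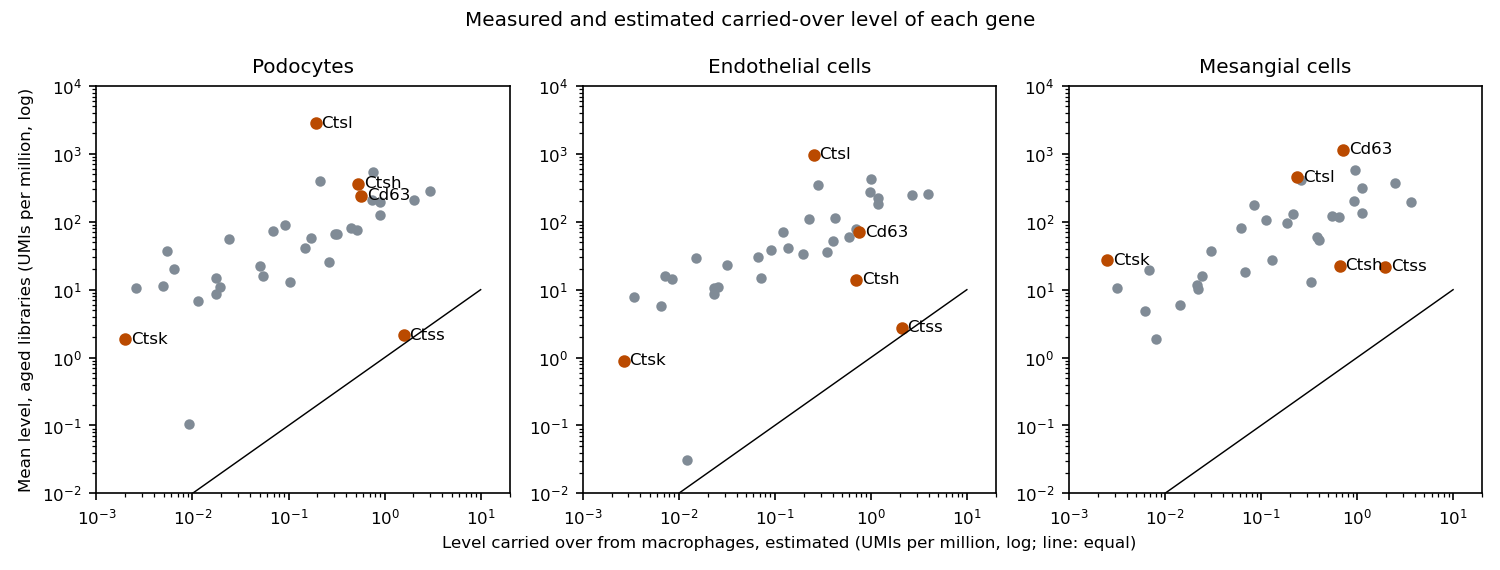
Mean level of each gene in the aged libraries (y axis, CPM, log scale) against the level expected from macrophage RNA (x axis, same unit, log scale) in 3 classes; the line marks equal values, and genes at 0 are not drawn. Ctss in podocytes and endothelial cells lies near the line, and in mesangial cells every gene drawn lies well above it.

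Gpnmb was the member without a measurable level in the glomerular classes. It had 0 of 23871237 UMIs in the young, which allows a level of up to 0.126 CPM (3 counts), and 2 of 53639887 in the aged libraries. In aged macrophages it measured 8.88 and 17.1, and in monocyte or dendritic cells 0 and 0 CPM in young and 31.9 and 13.3 in aged cells.

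The wider lysosomal system was read from 69 other genes: the proton pump, further hydrolases and cofactors, further membrane proteins, sorting receptors and regulators. The genes called higher were 4 of 67 tested in mesangial cells, 3 of 67 in podocytes and 4 of 69 in endothelial cells, with none lower. These counts were close to the 4.4%, 4.1% and 4.01% of all genes called higher there. At an unadjusted p under 0.05 edgeR gave 19 higher and 0 lower in mesangial cells, 9 and 0 in podocytes and 6 and 2 in endothelial cells. For 30 of the 67 in mesangial cells the aged libraries were both higher, and for 12 both lower (19.1% and 35.7% of all genes). The median log2 fold change there was 0.29 against -0.01 over all genes. None of 34 was called in cluster 17 by edgeR, where 2 were higher and 2 lower at an unadjusted p under 0.05, or by DESeq2. In mesangial cells 0 were called without young replicate 1 or without young replicate 2, and DESeq2 called 1. Without aged replicate 1 they were 6 higher and 1 lower, and without aged replicate 2, 14 higher, where 11.8% and 17.3% of all genes were called in either direction. In podocytes and endothelial cells the counts ran from 1 to 4 over the libraries left out. Litaf, a membrane protein of late endosomes and lysosomes, was called in 3 classes, and so was Lgmn, the asparaginyl endopeptidase that processes cathepsins. In mesangial cells Litaf measured 123 and 104 against 382 and 217 CPM (1.51 ± 0.24 (SE), adjusted p 0.00259), with log2 fold changes of 0.90 in podocytes (adjusted p 3.77e-06) and 0.92 in endothelial cells (adjusted p 0.00413). In mesangial cells Lgmn measured 18.2 and 12.5 against 35.1 and 26.1 CPM (1.05 ± 0.27 (SE), adjusted p 0.0339), with 0.81 in podocytes (adjusted p 0.00212) and 0.61 in endothelial cells (adjusted p 0.0221).

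Other calls were made in a single class. Mitf, a transcription factor of the family of Tfeb, measured 3.21 and 3.58 against 11.1 and 14.0 CPM in mesangial cells (2.00 ± 0.41 (SE), adjusted p 0.0111). Flcn, which acts on mTORC1 at the lysosome, measured 5.35 and 5.37 against 15.3 and 11.0 there (1.40 ± 0.39 (SE), adjusted p 0.0473). The young mesangial sums held 1868636 and 1117912 UMIs, so both genes rested on few molecules in young cells. Fuca1, a fucosidase, was higher in podocytes (106 and 93.0 against 139.7 and 126, 0.46 ± 0.14 (SE), adjusted p 0.0325). Scpep1, a carboxypeptidase, was higher in endothelial cells (26.6 and 29.4 against 50.7 and 48.6, 0.95 ± 0.15 (SE), adjusted p 0.000545), as was Atp6v1h, a subunit of the proton pump (30.6 and 35.6 against 46.8 and 41.1, 0.54 ± 0.15 (SE), adjusted p 0.0386). Of the proton pump genes in mesangial cells 0 of 15 were called, 6 had an unadjusted p under 0.05 in edgeR, and all 15 had positive estimates, with a median of 0.32.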

How the data were processed

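The deposited matrices held raw UMI counts per gene and barcode, per the file headers made with Cell Ranger 6.0.1, whereas the labels' extraction protocol names version 3.1.0, with GRCm38 as the build; Partek is in the submitters' processing notes. Positions came from GENCODE vM21. Barcodes with at least 500 genes and at most 20% mitochondrial UMIs were kept. The Scrublet threshold marked 0.448%, so a share of top scores that grew with library size was taken out (6.28% in all). Clusters were made with scanpy 1.11.5 and leidenalg 0.10.2 (2000 variable genes without the 34, 30 components, 15 neighbours, resolution 1) and named from marker lists at a level of at least 0.35 with 3 markers; 17 of 26 received a class, cluster 17 was compared by number, and thresholds were set with the data known. Mixed cells were left out.

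UMIs summed per class and library (at least 20 cells, or any number within a mesangial cluster) were tested with the quasi-likelihood test of edgeR 4.0.16 in R 4.3.3 (TMM, default count filter, adjusted p under 0.05), checked on simulated data. Interactions and class contrasts used the library as a block. SE is the estimate divided by the square root of F. DESeq2 1.42.0 was an alternative. The genes and lists were chosen with earlier results of these data known. The genes named are those called in any class, in every class where tested, with Lamp1, Lamp2, Ctsd, Glb1, Gpnmb, Ctss and Tfeb; others are given by their values. Carried-over RNA is the macrophage marker level of a class, relative to macrophages, times each gene's level in macrophages.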

Additional observations from a re-analysis of the deposited data

Results flagged for a closer look

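Age effects that differed between cell classes by the interaction test in edgeR were marked, and they are given as values. Mesangial cells exceeded podocytes for Gla (1.21 on the log2 scale), Ctsk (2.00) and Tpp1 (0.68), and endothelial cells for Gla (0.76), Grn (0.84) and Ctsh (1.28). Endothelial cells exceeded podocytes for Cd63 (0.84) and fell short of them for Grn (-0.43). The 2 of 33 genes of this last pair were close to the 6.14% of all genes called there. The mesangial counts were 3 of 33 against podocytes and 3 of 33 against endothelial cells (3.55% and 2.87% of all genes). The part of podocyte RNA in the Ctsh value was not tested. Adjusted p ran from 0.000737 for Cd63 to 0.0475 for Grn between endothelial cells and podocytes. Effects of the aged libraries in mesangial cells were measured mainly in cluster 9 and those of the young in cluster 14, as described above.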

How the results depend on the processing

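With 2 libraries per age, leaving out 1 library moved most counts of genes called higher: 0 to 4 in podocytes, 1 to 2 in endothelial cells, 0 to 19 in mesangial cells (where 0.349% to 17.3% of all genes were called, against 6.93%) and 0 to 1 in cluster 17; interactions ran from 1 to 3 (endothelial minus podocyte), 1 to 7 (mesangial minus podocyte), 0 to 4 (mesangial minus endothelial) and 0 to 1 (cluster 17 minus mesangial). The lone library of an age was then assumed to vary like the other age. In mesangial cells DESeq2 called 6 (Cd63, Ctsk, Ctsl, Gla, Npc2 and Psap). Alternatives chosen after seeing the data called 0 within cluster 14, 0 within cluster 9 and 7 with scaling by library totals (Ctsh, Ctsk, Ctsl, Ctss, Gla, Npc2 and Psap). In that order 3.86%, 0.963%, 0.143% and 6.45% of all genes were called. Scaling by library totals moved the median of all genes from -0.01 to -0.13 in endothelial and from -0.01 to -0.12 in mesangial cells. Of the 13 mesangial calls, 9 remained at clustering resolution 2 (without Npc2, Grn, Lamp1 and Cd63) and 11 with the automatic doublet threshold (without Lamp1 and Cd63). With the 34 genes among the clustering genes 12 remained (without Lamp1), as did 12 with mixed cells kept (without Ctsl). The shares of all genes called were 5.32%, 7.28%, 6.86% and 13.4% in that order. Without the count filter endothelial cells had 0 (with 0 genes called in all) and cluster 17 had 2 (1.58% of all genes). The interactions then had 6 (mesangial minus podocyte) and 5 (mesangial minus endothelial), for which the share of all genes is not given. A single fit of the 4 classes gave 1 in podocytes (2.54% of all genes) and 1 in endothelial cells (4.31%). Subtraction of macrophage counts gave 1 in endothelial cells (5.74%). No gene of the 34 was called lower in any class under any of these.

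The replicate block gave 3 in podocytes, 4 in endothelial cells, 16 in mesangial cells and 0 in cluster 17, where 7.7%, 8.73%, 15% and 1.86% of all genes were called. Deviations of same-numbered libraries correlated at 0.064, 0.066, 0.025 and 0.106, so the numbers were taken as names and not as pairs.

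Some estimates changed sign, most of them near 0. In podocytes Ctsd ran from -0.102 to 0.0867 over the libraries left out, and was 0.0015 in the single fit and 0.01 with mixed cells kept. Ctss ran from -1.18 to 1.90, and was -0.259 with DESeq2 and -0.153 with the block. In endothelial cells Tfeb ran from -0.172 to 0.0753 and was 0.0064 without cells that held a macrophage marker, and Lamp1 and Lamp2 were -0.0575 and -0.0491 by library totals. In mesangial cells, away from 0, Glb1 went from 0.41 to -0.462 within cluster 9 and Ppt1, a called gene, from 0.62 to -0.0551 within cluster 14. In cluster 17 Lamp1 ran from -0.143 to 0.0264, and was 0.048 without the filter, 0.0608 in the single fit and 0.188 with mixed cells kept, where Lamp2 was 0.0275. The cause was not tested.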

Other observations

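Monocyte or dendritic cells were not tested for age. Their summed share of the 34 genes was 0.960% and 0.983% (young) against 1.14% and 1.30% (aged). The class depended on the clustering, with 113, 149, 319 and 383 cells at resolution 1 and 70, 39, 192 and 103 at resolution 2. A class of T or natural killer cells, absent at resolution 1, held 27, 38, 54 and 67 cells at resolution 2. Summed monocyte or dendritic markers of the class were lower in both aged libraries, at 3594 and 3487 against 2010.5 and 1456 CPM. Macrophage markers overlapped, at 914 and 991 against 976 and 1227, highest in aged replicate 2. The part of these markers in the values was not tested. Ctsb measured 702 and 1024 against 1146 and 2329 CPM, Cd63 5.50 and 53.5 against 175 and 115 and Lipa 77.0 and 129 against 199 and 329.6, each higher in both aged libraries. Ctss, the antigen-presentation cathepsin, measured 1629 and 1602 against 1812 and 1719.8 and Psap 1932 and 1965 against 2014 and 2410.2. Lamp1 overlapped between the ages at 709.9 and 749 against 558 and 762.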
